A study of Mus musculus with 18 samples.

Results

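The growth hormone and IGF axis of the liver was followed through 10 genes: the receptor Ghr, its signal transducer Stat5b, the feedback inhibitors Socs2 and Cish, the ligand Igf1, its carrier subunits Igfals and Igfbp3, and the binding proteins Igfbp1, Igfbp2 and Igfbp4. They were chosen by name as the core of the axis, with earlier results of these data known. All 10 were among the 19057 lines of the expression table and among the 10507 genes that passed the filter on low values. Liver RNA-seq was available for 18 male ICR mice, 3 in each of 6 groups, and the labels give an age of 10 weeks for all of them. The Con mice had a regular diet and saline, the AOS mice were given alginate oligosaccharide (AOS) at 10 mg/kg on the regular diet, and the HFD mice had a high-fat diet and saline. The HFD+AOS mice had the high-fat diet and AOS at 10 mg/kg. The Con-FMT and A10-FMT mice had the high-fat diet and were inoculated by mouth with gut microbiota of control donors or of donors dosed with AOS at 10 mg/kg. The last 4 of these groups therefore share the high-fat diet. The inoculum of each kind was pooled small intestinal content, so that the mice of a group had 1 common inoculum and the donors were not replicated. The hour and the feeding state at which livers were collected are not given in the sources used here.

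Growth hormone from the pituitary binds the receptor GHR on hepatocytes, and the kinase JAK2 then phosphorylates STAT5B, which enters the nucleus and switches on Igf1, Igfals, Socs2 and Cish. IGF1 leaves the liver bound to IGFBP3 and the acid-labile subunit (the product of Igfals), while IGFBP1, IGFBP2 and IGFBP4 form smaller complexes. SOCS2 and CIS, the product of Cish, damp signalling at the receptor. Pulses of growth hormone make STAT5-driven transcripts vary from mouse to mouse. Igfbp1 is switched on by fasting through FoxO factors and switched off by insulin.

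The promoters of 4 of the genes are shown because their transcripts either moved between the groups (Igfbp1, Igfbp4 and Stat5b) or varied most within them (Cish). Each runs from 250 bases before to 50 bases after a start site in RefSeq annotation of GRCm38.p6 and is printed 5′ to 3′ on the strand of the gene. Capitals mark every match, on either strand, to 4 motifs: TTCNNNGAA (the STAT-type site), CAAAACA (a FoxO-type site), CACGTG (the E-box of the clock activators) and TATAAA (the TATA box).
Igfbp1: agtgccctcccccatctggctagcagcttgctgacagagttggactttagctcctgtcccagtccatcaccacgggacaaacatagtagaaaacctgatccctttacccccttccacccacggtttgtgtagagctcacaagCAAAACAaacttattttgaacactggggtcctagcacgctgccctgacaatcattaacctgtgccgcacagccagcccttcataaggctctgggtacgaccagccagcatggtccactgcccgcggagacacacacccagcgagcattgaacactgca
Igfbp4: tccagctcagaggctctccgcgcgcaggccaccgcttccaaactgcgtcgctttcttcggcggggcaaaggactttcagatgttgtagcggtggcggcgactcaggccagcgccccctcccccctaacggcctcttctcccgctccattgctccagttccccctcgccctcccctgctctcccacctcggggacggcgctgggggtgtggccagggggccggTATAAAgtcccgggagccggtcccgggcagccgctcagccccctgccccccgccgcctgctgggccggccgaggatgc
Cish: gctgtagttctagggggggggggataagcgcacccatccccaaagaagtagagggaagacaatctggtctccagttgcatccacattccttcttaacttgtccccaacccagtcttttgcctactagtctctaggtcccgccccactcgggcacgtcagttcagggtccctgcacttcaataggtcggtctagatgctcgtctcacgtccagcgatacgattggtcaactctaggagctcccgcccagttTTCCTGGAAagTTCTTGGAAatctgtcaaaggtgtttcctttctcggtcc
Stat5b: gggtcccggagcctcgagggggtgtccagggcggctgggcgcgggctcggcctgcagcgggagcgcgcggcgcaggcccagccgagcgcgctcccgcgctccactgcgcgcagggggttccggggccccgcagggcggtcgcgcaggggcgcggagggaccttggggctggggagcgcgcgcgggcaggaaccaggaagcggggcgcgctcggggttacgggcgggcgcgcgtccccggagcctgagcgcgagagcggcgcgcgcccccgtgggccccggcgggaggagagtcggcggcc
The windows lay at chr11:7197537-7197836 on the plus strand for Igfbp1, chr11:99040994-99041293 on the plus strand for Igfbp4, chr9:107296409-107296708 on the plus strand for Cish and chr11:100850532-100850831 on the minus strand for Stat5b. RefSeq promoters were matched by symbol for 9 of the 10 genes, Socs2 not among them, with 14 start sites in all. CAAAACA began 108 bases before the start of Igfbp1 and was in 6.28% of all 32851 promoters of this length. TATAAA began 28 bases before the start of Igfbp4, against 13.6% of all promoters with a match. Cish held 2 STAT-type sites that did not overlap, TTCCTGGAA beginning at the start site itself and TTCTTGGAA beginning 11 bases further on, while 8.30% of all promoters held this motif at least once. It was also found in 2 promoters of Igfals. CACGTG, in 7.15% of all promoters, matched Igfbp2 alone among the 14, and none of the 4 motifs matched the window of Stat5b shown.

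The 10 genes lie on chromosomes 1, 9, 10, 11, 15 and 17 in the GRCm38 annotation of GENCODE. Igfbp1 (chr11:7197782-7202546, plus strand) and Igfbp3 (chr11:7206086-7213923, minus strand) are neighbours with 3539 bp between them. Stat5b (chr11:100780731-100850724, minus strand) lies 8626 bp from its near-identical paralog Stat5a (chr11:100859351-100885169, plus strand), and reads shared by this pair could have been split or counted for both, so that the level of each is uncertain.

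Hepatocyte markers were high in every liver, with Alb (albumin) between 24367 and 41363 RPKM. The table holds RPKM, reads scaled to the length of the gene and the total of the library, and no read numbers, so that the depth of a library is unknown. The step in RPKM worth 1 read, taken over 56 sparsely read genes, ran from 0.965 to 1.02 of its median over libraries, and between 14512 and 14982 genes were above 0 in a liver. The third Con liver lay between the other Con livers for 98.0% of 148 genes that separated those by a log2 of at least 1, and for 9 of the 10 genes of the axis. The third AOS liver did so for 96.5% of 142 genes and 8 of the 10, against 8.33% to 76.8% in the other 16 livers. Results that use these groups are therefore also given without both livers where that changed them. Of 38 markers of 7 cell types not all could be tested, with 0 of 3 adipocyte, 2 of 4 lymphocyte and 3 of 5 cholangiocyte markers above the filter. The hepatocyte gene Cyp2e1 rose (0.70 and 0.63) and the cholangiocyte factor Sox9 fell (−1.03 and −0.87) on the log2 scale in A10-FMT and HFD+AOS against HFD. The hepatocyte factor Hnf4a fell in HFD+AOS. Their lists did not move as a whole. In both comparisons 4 of the 8 hepatocyte markers were higher and 4 lower by sign. Of the 3 cholangiocyte markers tested, 2 were higher and 1 lower. Of all genes tested, 6.6% and 8.75% changed in these comparisons. The part of these markers in the levels of the axis was not tested. Adipocyte markers summed to 5.63 RPKM in the first A10-FMT liver and to at most 0.52 in the other 17.

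Over the 18 livers Igfbp4 had the highest level of the axis, with 653 ± 110 RPKM (SD, n = 18). Igfbp2 followed at 255 ± 75.0 and Ghr at 232 ± 30.8 RPKM, and these 2 genes were not separated, since Igfbp2 was the higher in 11 of 18 livers. Igf1 was at 106 ± 9.33 and Igfals at 77.3 ± 12.3 RPKM, with Igf1 the higher in 18 of 18. At the lower end stood Igfbp1 at 27.2 ± 32.1, Stat5b at 13.2 ± 2.62, Igfbp3 at 11.6 ± 2.82, Socs2 at 10.6 ± 4.99 and Cish at 6.08 ± 4.59 RPKM. Neighbours in this lower part of the order changed places from liver to liver, Igfbp1 being above Stat5b in 10 of 18 and Igfbp3 above Socs2 in 9 of 18.

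The spread between mice of a group differed widely along the axis. The pooled SD within groups, on the log2(RPKM + 1) scale, was 1.03 for Cish, 0.85 for Igfbp1 and 0.73 for Socs2, against a median of 0.13 over all genes tested. These values stood at the percentiles 99.7, 99.5 and 99.2 of all genes tested. Igf1, by contrast, had an SD of 0.13 (percentile 47.2), and its highest liver exceeded its lowest by 1.36-fold, compared with 48.5-fold for Igfbp1, 38.1-fold for Cish and 6.09-fold for Socs2. Stat5b (0.10, percentile 25.2) and Igfbp4 (0.11, percentile 27.4) were among the steadier genes within groups. The precision of the comparisons that follow therefore differs between the genes.

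**Figure D1:**
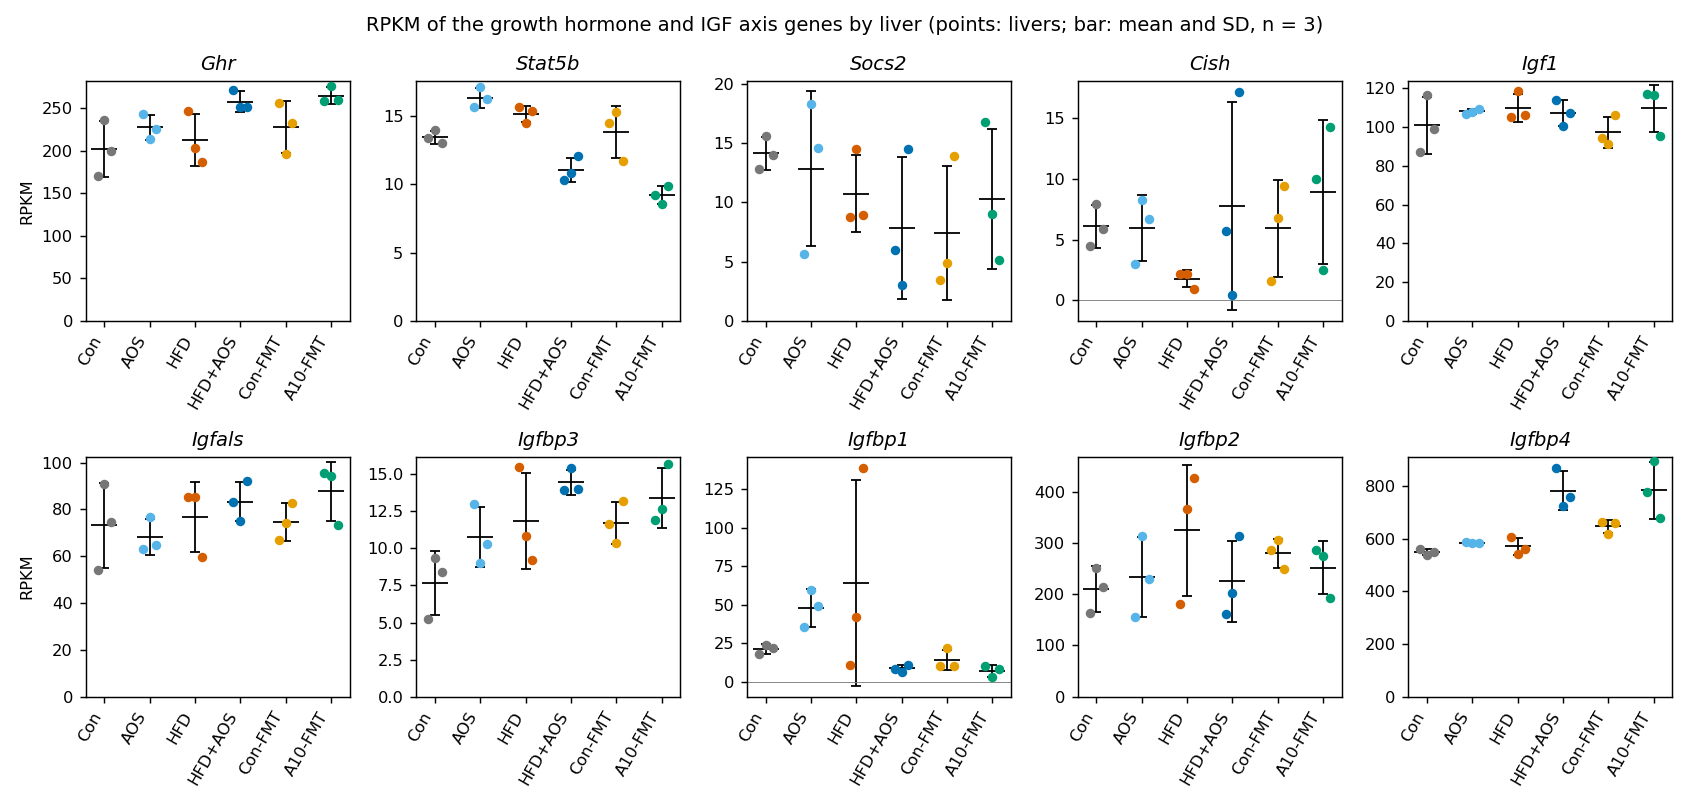
RPKM of the 10 genes of the axis in each liver, by group, with the mean and SD (n = 3) as black bars and a separate linear axis for each gene. Stat5b was lowest in the A10-FMT livers (8.57 to 9.88 RPKM) and Igfbp4 highest in the A10-FMT and HFD+AOS livers, while Igf1 stayed between 86.92 and 118.38 RPKM in all 18.

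Groups were compared with limma on log2(RPKM + 1), and a gene counts as changed at a Benjamini-Hochberg adjusted p under 0.05 over all genes tested. Between A10-FMT and HFD 3 of the 10 genes changed, Igfbp4 higher and Stat5b and Igfbp1 lower, where 6.6% of all genes tested changed. Between HFD+AOS and HFD 3 of 10 changed, with Igfbp4 again higher and Stat5b and Igfbp1 lower, where 8.75% of all genes did. These comparisons share the HFD livers, so they are not independent of each other. Between A10-FMT and Con-FMT only Stat5b of the 10 changed, where 1.68% of all genes did.

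In 3 comparisons none of the 10 genes passed the adjusted threshold. This was so for HFD against Con (0.381% of all genes changed), for AOS against Con (0.133%) and for Con-FMT against HFD (0.00952%). An unadjusted p under 0.05 was reached by 1 of the 10 beside 15.4% of all genes, 2 of 10 beside 15.5%, and 1 of 10 beside 6.63%, in the same order. The effect of AOS differed between the diets for Stat5b alone among the 10, where 0.504% of all genes passed that test.

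The 3 livers of each group did not overlap for 2 of the 10 genes in HFD against Con, against 18.5% of all genes, and for 3 of 10 in AOS against Con, against 24.7%. For A10-FMT against HFD this was 5 of 10 beside 23.4%, for HFD+AOS against HFD 4 of 10 beside 27.2%, for Con-FMT against HFD 1 of 10 beside 10.1%, and for A10-FMT against Con-FMT 4 of 10 beside 18.3%. The genes of the axis went in both directions, with 5 of 10 higher and 5 of 10 lower in A10-FMT and in HFD+AOS against HFD, and 7 higher and 3 lower in A10-FMT against Con-FMT. Their median log2 fold changes were 0.09, 0.05 and 0.20, beside −0.03, −0.01 and −0.03 over all genes tested, and nothing is read from a median over genes of opposite direction.

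**Figure D2:**
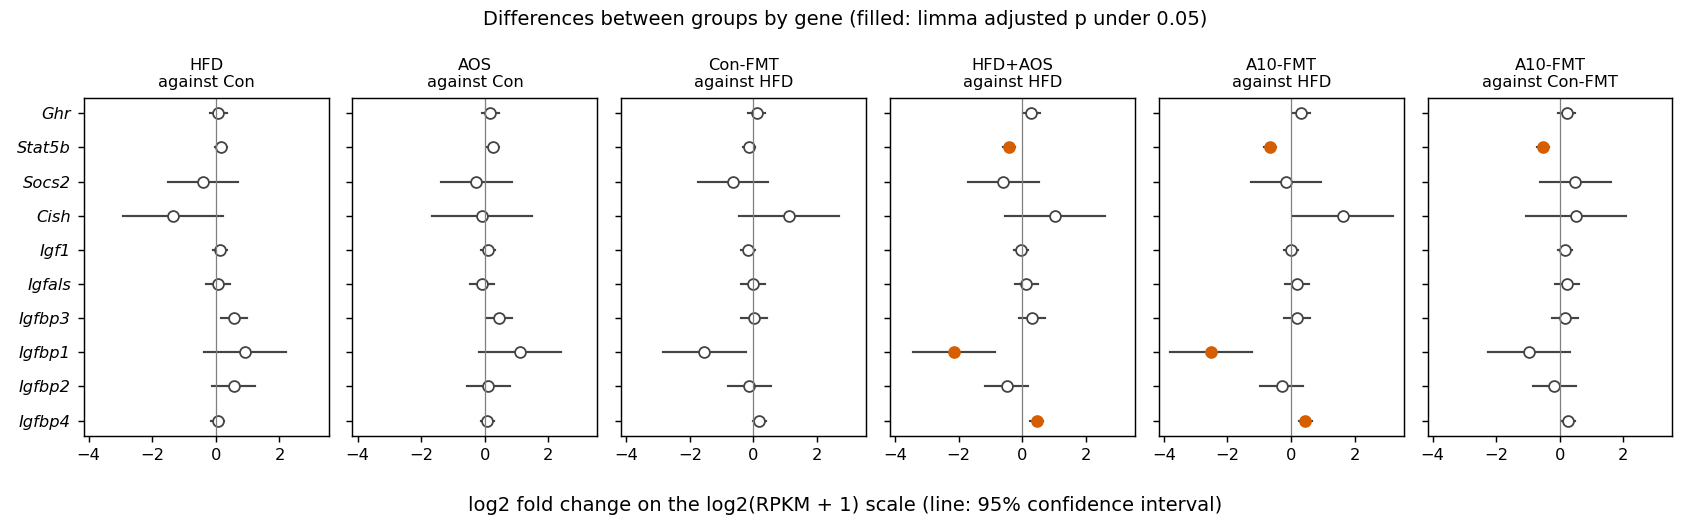
Log2 fold changes of the 10 genes on the log2(RPKM + 1) scale in 6 comparisons, with 95% confidence intervals and filled points where the adjusted p was under 0.05. The filled points are Stat5b, Igfbp1 and Igfbp4 in HFD+AOS against HFD and in A10-FMT against HFD, and Stat5b in A10-FMT against Con-FMT, and the intervals of Socs2, Cish and Igfbp1 are the widest.

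Stat5b, the transducer that carries the growth hormone signal to the nucleus, changed in the most comparisons. It was at 15.64, 14.51 and 15.39 RPKM in the HFD livers and at 13.37, 13.97 and 13.04 RPKM in the Con livers. With the A10-FMT inoculum it was at 9.22, 8.57 and 9.88 RPKM, and in the HFD+AOS livers at 10.30, 10.81 and 12.06 RPKM. Every A10-FMT and every HFD+AOS liver was below every Con, AOS and HFD liver. The Con-FMT livers, at 14.51, 15.33 and 11.69 RPKM, were also all above the A10-FMT livers, and the third of them was below the highest HFD+AOS liver.

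The mean of Stat5b in A10-FMT (9.22 ± 0.655 RPKM, SD, n = 3) was 0.608 of that in HFD (15.2 ± 0.594), and the log2 fold change was −0.66 (SE 0.09, limma adjusted p = 0.000396). For HFD+AOS (11.1 ± 0.906 RPKM) against HFD the ratio was 0.728 and the log2 fold change −0.43 (SE 0.09, adjusted p = 0.00944). Stat5b was 0.666 of its Con-FMT level in A10-FMT, a log2 fold change of −0.53 (SE 0.09, adjusted p = 0.00536), a call that held in 11 of 12 alternative analyses and was lost when just these 2 groups were fitted (adjusted p = 0.189). In Con-FMT against HFD the log2 fold change was −0.13 with a 95% interval from −0.32 to 0.06 (adjusted p = 0.823). These are differences of transcript level, and in bulk liver fewer hepatocytes and less RNA per cell cannot be told apart.

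On the regular diet Stat5b went the other way with AOS, at 15.69, 17.14 and 16.25 RPKM in the AOS livers, all above the Con livers. This log2 fold change of 0.26 (SE 0.09) did not pass the adjusted threshold (adjusted p = 0.183). The difference between the AOS effects on the diets did pass it, at −0.69 (SE 0.13, adjusted p = 0.0174). That call was lost without the third Con and AOS livers, where the difference was −0.67 (adjusted p = 0.165), and in 6 of 12 analyses that left out a single liver (highest adjusted p = 0.0641, without the second AOS liver). The A10-FMT call held in 12 of 12 alternative analyses (adjusted p from 0.000396 to 0.0214) and the HFD+AOS call in 11 of 12, being lost without the first HFD+AOS liver (adjusted p = 0.0530).

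The paralog Stat5a, which shares the role of STAT5B, was at 5.63, 4.47 and 5.09 RPKM in the HFD livers and at 2.62, 3.02 and 3.87 RPKM in the A10-FMT livers. The groups did not overlap, and the log2 fold change was −0.55 (SE 0.14, adjusted p = 0.0282). In HFD+AOS it was at 3.52, 3.90 and 3.26 RPKM, also all below the HFD livers, without passing the threshold.

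Clock genes also changed in A10-FMT and in HFD+AOS against HFD, where Stat5b was lower. Arntl, which encodes the clock activator BMAL1, was at 12.11, 14.64 and 13.21 RPKM in the HFD livers, at 1.18, 1.23 and 1.32 RPKM in the HFD+AOS livers and at 0.79, 0.69 and 2.41 RPKM in the A10-FMT livers. The output factor Dbp ran from 0.27 to 0.59 RPKM in HFD, from 88.9 to 111.84 in HFD+AOS and from 49.17 to 126.9 in A10-FMT. All 5 genes of the listed activator phase fell in A10-FMT and in HFD+AOS against HFD. Of 9 listed repressors and PAR bZIP factors, 8 rose in A10-FMT and 7 in HFD+AOS. In these comparisons 6.6% and 8.75% of all genes tested changed. By sign, all 5 were also lower and all 9 higher in Con-FMT against HFD, where Stat5b differed by −0.13. None of them passed the adjusted threshold there (0.00952% of all genes did). An unadjusted limma p under 0.05 was reached by 3 of 5 and 7 of 9, beside 6.63% of all genes. Dbp ran from 3.24 to 22.57 RPKM in Con-FMT. The part of the clock, and of the hour of collection, in the levels of Stat5b, Igfbp4 and Igfbp1 was not tested.

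**Figure D3:**
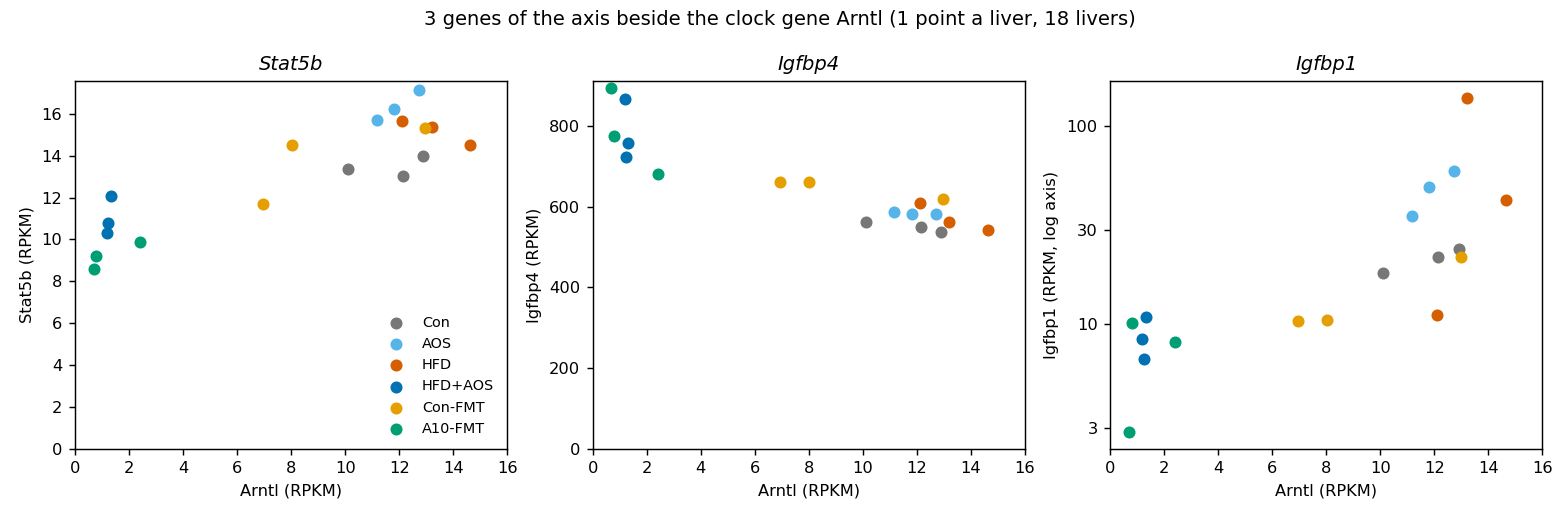
RPKM of Stat5b, Igfbp4 and Igfbp1 (vertical, log axis for Igfbp1) against RPKM of the clock gene Arntl (horizontal) in each of the 18 livers, coloured by group. The A10-FMT and HFD+AOS livers, with Arntl at most 2.41 RPKM, lie apart from the other 12, which have Arntl of at least 6.94 RPKM.

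The receptor Ghr was measured at 246.88, 203.31 and 186.86 RPKM in the HFD livers, at 258.25, 276.26 and 259.38 in the A10-FMT livers and at 271.53, 250.67 and 250.58 in the HFD+AOS livers. Both of the latter groups lay above all 3 HFD livers. The log2 fold changes were 0.33 (SE 0.13) for A10-FMT and 0.29 (SE 0.13) for HFD+AOS, which did not pass the threshold (adjusted p = 0.128 and 0.165). The A10-FMT difference passed in 1 of 12 alternative analyses, without the first HFD liver (0.44, adjusted p = 0.0447). In HFD against Con the log2 fold change was 0.08, with an interval from −0.19 to 0.35.

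Cish, the feedback inhibitor with 2 STAT-type sites at its start, was the most variable gene of the axis. In the HFD livers it was at 2.20, 2.20 and 0.97 RPKM, all below the Con livers at 4.45, 7.97 and 5.86 RPKM. The A10-FMT livers ranged from 2.53 to 14.23 RPKM, all above the HFD livers, and the HFD+AOS livers from 0.45 to 17.14 RPKM, on both sides of them. The low HFD values were thus common to the 3 livers of that group.

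The mean of Cish in HFD was 0.294 of that in Con, yet the log2 fold change of −1.35 (SE 0.74) had an interval from −2.92 to 0.22 (adjusted p = 0.396). For A10-FMT against HFD the mean ratio was 4.99, with a log2 fold change of 1.63 (SE 0.74, interval from 0.06 to 3.19, adjusted p = 0.190). For HFD+AOS against HFD the log2 fold change was 1.04 (interval from −0.53 to 2.61). None of these passed the adjusted threshold at the spread between mice.

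Socs2, the other inhibitor of growth hormone signalling, ran from 12.86 to 15.64 RPKM in the Con livers, the narrowest group. Its other groups were wider, as in AOS (5.64 to 18.32), HFD (8.76 to 14.52), HFD+AOS (3.01 to 14.55), Con-FMT (3.49 to 13.88) and A10-FMT (5.16 to 16.75 RPKM). All 6 groups overlapped with one another at some liver, and the log2 fold change of A10-FMT against HFD was −0.15 with an interval from −1.26 to 0.96.

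Igf1, the circulating ligand of the axis, was the steadiest of the STAT5 targets measured. Its group means lay between 97.4 ± 7.98 RPKM in Con-FMT and 110 ± 7.28 RPKM in HFD (SD, n = 3). Against HFD, the log2 fold change was −0.01 (interval from −0.23 to 0.22) in A10-FMT and −0.04 (interval from −0.26 to 0.19) in HFD+AOS, with adjusted p = 0.975 and 0.873. In these comparisons Stat5b was lower while the intervals of Igf1 lay within a log2 of 0.3 on either side of 0. Against Con-FMT, A10-FMT differed by 0.17 (interval from −0.06 to 0.39).

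Igfals, the acid-labile subunit that holds IGF1 in the large serum complex, had group means from 68.2 ± 7.51 RPKM in AOS to 87.7 ± 12.5 RPKM in A10-FMT. Its log2 fold changes against HFD were 0.20 (SE 0.18) in A10-FMT and 0.13 (SE 0.18) in HFD+AOS, within the spread between mice (adjusted p = 0.518 and 0.679). Relative to Igf1, Igfals stood at 56.2% to 85.6% over the 18 livers.

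Igfbp3, the main carrier of IGF1 in serum and a product chiefly of the non-parenchymal cells of the liver, was at 5.23, 9.38 and 8.40 RPKM in the Con livers. It was at 15.47, 10.85 and 9.22 RPKM in the HFD livers, which overlapped with Con at 1 liver of each group. The log2 fold change of 0.57 (SE 0.19) had an interval from 0.16 to 0.98 and did not pass after adjustment (limma adjusted p = 0.178). In HFD+AOS it was at 13.95, 15.42 and 14.02 RPKM, the group with the highest mean, at a log2 fold change of 0.30 (SE 0.19, adjusted p = 0.350) against HFD. The 6 sinusoidal endothelial markers summed to 44.04 to 51.4 RPKM in Con and to 45 to 47.5 RPKM in HFD, and the 6 stellate markers to 68.62 to 80.24 and 82.56 to 99.64 RPKM, whose part in the levels of Igfbp3 was not tested.

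Igfbp1, the binding protein that responds to fasting and insulin, had the widest range of the axis. In the HFD livers it was at 11.18, 42.18 and 138.83 RPKM. In the A10-FMT livers it was at 10.16, 2.86 and 8.17 RPKM and in the HFD+AOS livers at 8.46, 6.66 and 10.85 RPKM. All 6 of these were below the lowest HFD liver, though by little in the case of 10.85 and 10.16 against 11.18 RPKM.

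The log2 fold change of Igfbp1 against HFD was −2.51 (SE 0.61, adjusted p = 0.0233) in A10-FMT, where its mean was 0.110 of the HFD mean, and −2.14 (SE 0.61, adjusted p = 0.0414) in HFD+AOS, where it was 0.135 of that mean. Its size rested in part on the third HFD liver, without which the log2 fold changes were −1.64 (adjusted p = 0.0869) and −1.27 (adjusted p = 0.167). The calls held in 7 of 12 alternative analyses for A10-FMT and in 4 of 12 for HFD+AOS, and both were lost without the third Con and AOS livers (adjusted p = 0.0502 and 0.0753). The A10-FMT call was also lost without the second HFD (adjusted p = 0.0721) or the second A10-FMT liver (adjusted p = 0.118), and the HFD+AOS call without the second HFD liver (adjusted p = 0.101) or any 1 HFD+AOS liver (adjusted p from 0.0654 to 0.114). In the third HFD liver the 6 Kupffer cell and macrophage markers summed to 92.17 RPKM, compared with 40.87 and 46.19 in the other HFD livers. Similar sums were found in Con (52.76 to 82.2 RPKM) and AOS (66.72 to 93.71 RPKM), where Igfbp1 was at most 24.01 and 59.56 RPKM. The part of these markers in the level of Igfbp1 was not tested.

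On the regular diet Igfbp1 was at 18.10, 24.01 and 21.78 RPKM in Con and at 35.23, 59.56 and 49.33 RPKM in AOS, groups that did not overlap. The log2 fold change was 1.11 (SE 0.61, interval from −0.18 to 2.41) and did not pass (adjusted p = 0.401). The difference between the AOS effects on the diets was −3.25 (SE 0.86, adjusted p = 0.110), and it passed without the first HFD liver (−4.15, adjusted p = 0.00585). In Con-FMT the gene was at 10.53, 21.83 and 10.35 RPKM, with 2 livers below all HFD livers and a log2 fold change of −1.54 (SE 0.61, adjusted p = 0.690).

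Igfbp4, the most abundant binding protein of the axis, was at 608.20, 542.89 and 562.29 RPKM in the HFD livers. It was at 776.12, 893.89 and 680.25 RPKM in the A10-FMT livers and at 867.99, 723.26 and 757.81 RPKM in the HFD+AOS livers. Every liver of these groups was above every liver of the other 4 groups, whose highest value was 662.39 RPKM in Con-FMT. The Con (537.09 to 562.12 RPKM) and AOS livers (581.90 to 586.05 RPKM) were close together within their groups.

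The mean of Igfbp4 was 1.37-fold that of HFD in both A10-FMT (783 ± 107 RPKM) and HFD+AOS (783 ± 75.6 RPKM), against 571 ± 33.5 RPKM in HFD. The log2 fold changes were 0.45 (SE 0.10) in both, with adjusted p = 0.0129 in A10-FMT and 0.0117 in HFD+AOS. The A10-FMT call held in 9 of 12 alternative analyses (highest adjusted p = 0.156) and the HFD+AOS call in 10 of 12 (highest adjusted p = 0.0717). Leaving out a single liver ended the first of these without the second HFD (adjusted p = 0.0567) or the second A10-FMT liver (adjusted p = 0.0745), and the other without the first HFD+AOS liver (adjusted p = 0.0633). Against Con-FMT (648 ± 24.5 RPKM) the log2 fold change in A10-FMT was 0.27 (SE 0.10, adjusted p = 0.189), and in Con-FMT against HFD it was 0.18 (SE 0.10, adjusted p = 0.770), neither of which passed.

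Igfbp2, a binding protein raised in fasting and in lean states, was at 181.55, 367.90 and 427.30 RPKM in the HFD livers and at 163.67, 252.35 and 214.60 RPKM in the Con livers. The highest HFD livers were above all Con livers and the first was not, and the log2 fold change was 0.56 with an interval from −0.11 to 1.23 (adjusted p = 0.409). In HFD+AOS it ranged from 161.47 to 314.02 and in A10-FMT from 192.71 to 287.65 RPKM, overlapping with HFD in both.

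Summed over the 4 binding proteins, the RPKM was 749 to 823 in Con, 816 to 1138 in HFD, 947 to 1097 in HFD+AOS and 897 to 1185 in A10-FMT. The HFD livers overlapped with each of these groups. Igfbp1 made up 12.2% of it in the third HFD liver and 0.241% in the second A10-FMT liver, the extremes of the 18. Igfbp4 made up from 49.4% in the third HFD liver to 82.5% in the first HFD+AOS liver. Igf1 stood at 9.33% to 14.2% of the sum.

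**Figure D4:**
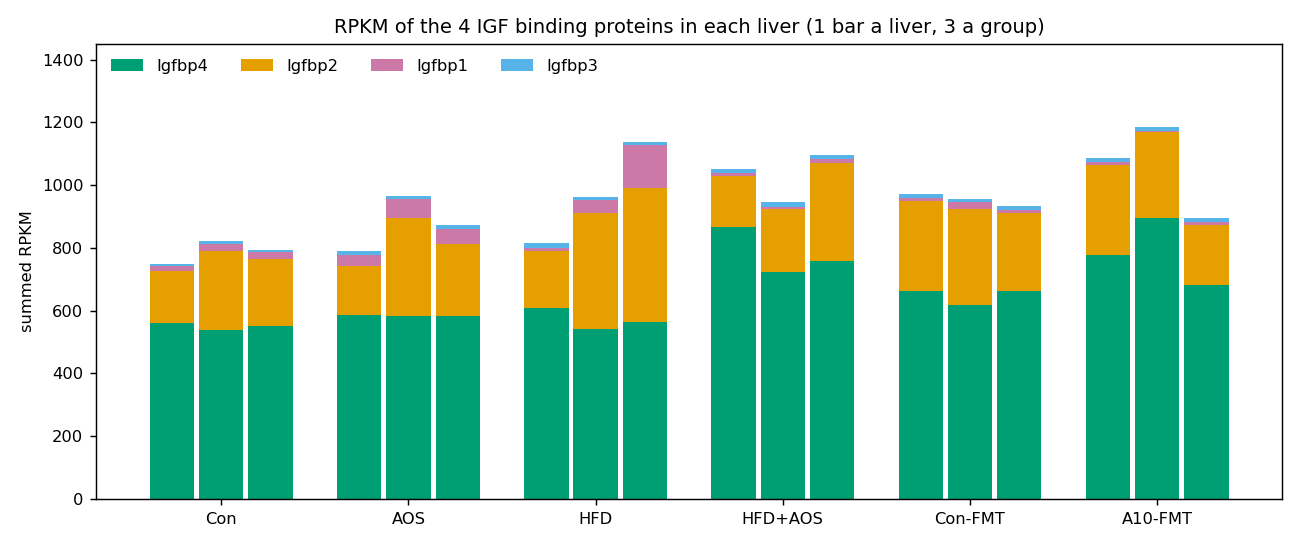
RPKM of Igfbp4, Igfbp2, Igfbp1 and Igfbp3 stacked for each liver (vertical axis from 0), with 3 bars a group. Igfbp4 is the largest share of every bar (49.4% to 82.5%), and the Igfbp1 share reaches 12.2% in the third HFD liver.

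Among 53 further genes of the pathway in 7 lists (ligands and receptors, cytokine receptors, JAK-STAT signalling, inhibitors, other binding proteins, their proteases, and partner transcription factors), 39 passed the filter on low values. In A10-FMT against HFD 1 of the 39 rose and 3 fell, where 6.6% of all genes tested changed. Igfbp6, a further IGF binding protein of low level, rose by a log2 of 0.91 (adjusted p = 0.0254), while Stat5a, the gp130 receptor subunit Il6st (−0.28, adjusted p = 0.0261) and the inhibitor Socs4 (−0.47, adjusted p = 0.0240) fell. In HFD+AOS against HFD 2 of the 39 fell, where 8.75% of all genes changed. These were Il6st (−0.28, adjusted p = 0.0255) and the hepatocyte factor Hnf4a (−0.26, adjusted p = 0.0473). In A10-FMT against Con-FMT Socs4 alone fell (−0.55, adjusted p = 0.0267), where 1.68% of all genes changed.

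In the other 4 comparisons 0 of the 39 passed limma's adjusted threshold, while an unadjusted p under 0.05 was reached by 12 of 39 in HFD against Con (15.4% of all genes), 10 in AOS against Con (15.5%), 2 in Con-FMT against HFD (6.63%) and 8 for the difference between diets (14.7%). The receptor Igf1r was at 0.13 to 0.25 RPKM and Igf2 at 0.04 to 0.39 RPKM in all livers, below the filter, and the protease Pappa2 was listed at 0 in all 18. Of the lists with no changed gene, the smallest unadjusted p was that of the sheddase Adam9 among proteases in A10-FMT against Con-FMT (−0.27, adjusted p = 0.105) and of the clearance receptor Igf2r among receptors in HFD against Con (0.20, adjusted p = 0.244). The kinase Jak2, which sits on GHR, was among the 39 and did not pass in any comparison.

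Lists of genes known to follow growth hormone were read beside Stat5b. Of 14 male-biased genes, all tested, 1 fell and 0 rose in A10-FMT against HFD (6.6% of all genes changed), and 2 fell and 0 rose in HFD+AOS against HFD (8.75% of all genes). Elovl3, a fatty acid elongase of male liver, was at 250.25, 174.28 and 183.36 RPKM in HFD, at 20.96, 16.83 and 29.07 in A10-FMT and at 25.24, 26.48 and 45.27 in HFD+AOS. Its log2 fold changes were −3.14 (adjusted p = 1.54e-05) and −2.64 (adjusted p = 8.70e-05), and it was the 1 male-biased gene that changed in both. In A10-FMT against Con-FMT it fell as well (−2.72, adjusted p = 0.000152). Selenbp2 was the other that fell in HFD+AOS (−1.44, adjusted p = 0.0305).

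The median log2 fold change of the male-biased list was 0.03 in A10-FMT and −0.24 in HFD+AOS against HFD, beside −0.03 and −0.01 over all genes. Of 14 female-biased genes 7 were tested. Among these Cyp3a44 fell in A10-FMT (−2.04, adjusted p = 0.0432) and Acot3 rose in HFD+AOS (1.58, adjusted p = 0.0485) against HFD. The filter asked for at least 1 RPKM in at least 3 libraries. Acot3 reached this level in all 3 HFD+AOS livers (7.34, 1.07 and 4.6 RPKM). Elsewhere it did so only in the first AOS (1.01) and the second A10-FMT liver (5.39). It thus passed the filter only with the group where it is high, and nothing is read from its call. In HFD+AOS against HFD the median of these 7 genes was 0.94 beside −0.01 over all genes, with 6 of 7 higher. An unadjusted limma p under 0.05 was reached by 6 of 7 in either direction, beside 26.2% of all genes. These 2 counts need not cover the same genes. The 1 lower gene was Cyp3a44, at 0.32, 7.98 and 8.37 RPKM in HFD and at 0.17, 0.13 and 1.98 RPKM in HFD+AOS. In A10-FMT against HFD the median was 0.05 beside −0.03, with 4 of 7 higher and 1 of 7 at an unadjusted p under 0.05 (24.5% of all genes). The HFD+AOS counts include Acot3 and rest in part on the first liver of that group. Its 3 livers had Cyp2a4 at 44.17, 1.22 and 0.26, Cyp2b13 at 3.32, 0.68 and 0.54, and Cyp17a1 at 5.46, 0.74 and 1.19 RPKM. Abcd2, by contrast, was highest in the third liver (5.38 RPKM). The rest of the 14 genes were below the filter, so that their direction was not tested.

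Igfbp1 was read beside genes of fasting and feeding, which were tested in the same comparisons. Of FoxO1 and fasting targets, 12 were tested. All 12 were higher by sign in HFD against Con, with a median of 0.42 beside 0.05 over all genes. There 2 of 12 passed the threshold (0.381% of all genes). In AOS against Con 11 were higher and 1 lower, and 1 passed (0.133%). In A10-FMT against HFD 0 rose and 2 fell (6.6% of all genes changed). In HFD+AOS against HFD 2 rose and 2 fell (8.75%). By sign alone 8 of 12 were higher and 4 lower in A10-FMT, with a median of 0.15 beside −0.03 over all genes. An unadjusted limma p under 0.05 was reached there by 8 of 12, beside 24.5% of all genes. In HFD+AOS 6 were higher and 6 lower, with a median of 0.04 beside −0.01. Pdk4, a kinase that spares glucose in fasting, fell in both comparisons (−1.34, adjusted p = 0.00293, and −1.13, adjusted p = 0.00826). The hepatokine Fgf21 fell in A10-FMT (−1.25, adjusted p = 0.00809) and the glucose-releasing enzyme G6pc in HFD+AOS (−1.58, adjusted p = 0.0137), where Cpt1a (0.69, adjusted p = 0.00388) and Foxo3 (0.35, adjusted p = 0.0445) rose. Of 10 genes induced by feeding and insulin, Srebf1 and Thrsp rose in A10-FMT (0.94, adjusted p = 0.0119, and 2.64, adjusted p = 0.00487) and in HFD+AOS (0.92, adjusted p = 0.0136, and 2.39, adjusted p = 0.00826). These were 2 of 10 in each, where 6.6% and 8.75% of all genes changed. By sign alone 5 of the 10 were higher and 5 lower in A10-FMT (median 0.04). In HFD+AOS 9 were higher and 1 lower (median 0.41). The part of the fasting and feeding genes in the level of Igfbp1 was not tested.

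The genes most like each changed member over the 18 livers are given as a description, since livers of a group share their treatment. For Stat5b these were Rnf125 (Pearson r = 0.95), Sgpl1 (0.94) and Cpeb4 (0.94). After the group means were taken off, the clock gene Npas2 came first for Stat5b (r = 0.89 over 18 livers), followed by Ube2u (0.85) and Dnajc28 (0.81). For Igfbp4 the most alike were Sord (0.96), Bckdhb (0.94) and Lrp4 (0.93), and for Igfbp1 they were Ggh (0.90), Med12 (0.88) and Irf2bp2 (0.88). With group means taken off they were Rnaset2a (0.86), Riox1 (0.83) and Sox18 (0.83) for Igfbp4, and Ptch1 (0.91), Dennd4c (0.90) and Kbtbd2 (0.89) for Igfbp1.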

How the data were processed

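RNA of 18 livers was sequenced. The authors mapped reads to reference genes, naming SOAPaligner, while the submitters' processing notes list Bowtie 0.12.2 and mm10, and they deposited RPKM rounded to 2 decimals. The settings that the authors give for SOAPaligner keep repeated hits, so that paralogs may share reads if these settings were used. Which aligner made the deposited values is not settled. Annotation and strandedness are not given in the sources used here. Groups came from the labels, which number the livers of a group, and p-values measure the spread between these. Genes with at least 1 RPKM in at least 3 libraries (10507 of 17109 above 0) were taken as log2(RPKM + 1), which understates the fold changes of low genes. The R package limma (3.58.1, under R 4.3.3) fitted a mean per group to the 18 libraries, with moderated, trended variances, two-sided tests and Benjamini-Hochberg adjustment in each of 7 comparisons. An exact permutation test of 3 against 3 cannot go below p = 0.1 and was not used. DEGseq, named by the study, needs read numbers and was not run. Tables and figures used Python 3.11.15, pandas 2.3.3 and matplotlib 3.10.9. Gene positions were from GENCODE M21. The fit was tested on simulated data.

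The 10 genes and all lists were chosen with earlier results of these data known. Named were all 10 genes, list members that passed (at most 4 per list and comparison) or else the 1 of smallest unadjusted p, and the 3 genes of highest Pearson r with each changed gene. Jak2 and the pathway genes below the filter were named after their values were seen. Alternatives set library medians equal, used a pseudocount of 0.1, kept all genes above 0, fitted just the groups compared, took the replicate number as a block, or dropped 1 liver at a time, or replicate 3 of both Con and AOS.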

Additional observations from a re-analysis of the deposited data

Results flagged for a closer look

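The effect of AOS differed between the regular and the high-fat diet, by the interaction term in limma, for 1 gene of the axis and for 9 genes of the lists read beside it. The 9 were 4 of 5 clock activator genes, 4 of 9 clock repressors and PAR bZIP factors, and 1 of 12 fasting targets. Of all genes tested, 0.504% passed this test. For Stat5b the difference (effect on the high-fat diet minus effect on the regular diet) was −0.69 on the log2 scale. The Stat5b call was lost without the third Con and AOS livers (limma adjusted p = 0.165) and with library medians set equal (adjusted p = 0.0516). Among clock genes the difference was −2.70 for Arntl, −1.81 for Npas2, −1.16 for Clock and −1.68 for Nfil3, and it was 5.45 for Dbp, 2.12 for Tef, 2.48 for Per3 and 3.26 for Ciart. For Angptl4, a lipase inhibitor induced in fasting, it was −1.18. Stat5b was higher in 3 of 3 AOS livers than in all Con livers, and lower in 3 of 3 HFD+AOS livers than in all HFD livers.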

How the results depend on the processing

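When the fit held just the 2 groups in question, the number of the 10 genes that changed went from 3 to 1 in A10-FMT against HFD and in HFD+AOS against HFD, and from 1 to 0 in A10-FMT against Con-FMT. For the difference of the AOS effect between diets it went from 1 to 0 with library medians set equal and without the third liver of both Con and AOS. The causes were not tested. Leaving out 1 liver at a time gave 1 to 4 genes for A10-FMT against HFD (1 without the second HFD or the second A10-FMT liver), 0 to 3 for HFD+AOS against HFD (0 without the first HFD+AOS liver), 1 to 2 for A10-FMT against Con-FMT (2 without the third A10-FMT liver) and 0 to 2 for the difference between diets (2 without the first HFD liver). That last count was 0 without AOS replicate 2 or 3, Con replicate 3, HFD replicate 3, or HFD+AOS replicate 1 or 2. For HFD against Con, AOS against Con and Con-FMT against HFD it was 0 in all alternatives run.

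With library medians set equal, the log2 fold change changed sign for Igf1 in A10-FMT against HFD (0.037) and for Igfbp4 in HFD against Con (−0.0068), and medians of all genes moved by at most 0.08. Leaving out 1 liver changed the sign of differences that had not passed. For HFD against Con the values ran from −0.040 to 0.20 for Ghr and from −0.12 to 0.25 for Igfals (0.01 to 0.09 for Igfbp4). For A10-FMT against HFD they ran from −0.057 to 0.088 for Igf1 and from −0.55 to 0.22 for Socs2. For HFD+AOS against HFD they ran from −0.080 to 0.018 for Igf1 and from −0.038 to 0.22 for Igfals. For Con-FMT against HFD they ran from −0.19 to 0.060 for Igfals, −0.50 to 0.11 for Igfbp2 and −0.14 to 0.20 for Igfbp3. For A10-FMT against Con-FMT they ran from −0.10 to 1.12 for Cish and −0.28 to 0.010 for Igfbp2. For AOS against Con they ran from −0.33 to 0.28 for Cish, −0.27 to 0.091 for Igfals, −0.12 to 0.38 for Igfbp2 and −0.57 to 0.20 for Socs2. For the difference between diets they ran from −0.015 to 0.22 for Ghr, −0.31 to 0.057 for Igfbp3 and −0.85 to 0.12 for Socs2.

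Same-numbered livers are not tied by the labels, and their deviations from group means correlated from −0.18 to 0.23, with 0 comparisons in which every correlation was over 0.1. With the replicate number as a block the count of changed genes of the axis stayed at 3, 3, 1 and 1 in A10-FMT against HFD, HFD+AOS against HFD, A10-FMT against Con-FMT and the difference between diets, and at 0 in the others, while all changed genes in HFD against Con went from 40 to 5. Over the alternatives the number of all genes that changed ran from 78 to 1218 for A10-FMT against HFD (693 as reported), 320 to 1282 for HFD+AOS against HFD (919), 4 to 564 for A10-FMT against Con-FMT (177), 0 to 178 for HFD against Con (40), 0 to 132 for AOS against Con (14), 1 to 13 for Con-FMT against HFD (1) and 15 to 186 for the difference between diets (53). Read numbers were not given, so that the precision of low RPKM values is unknown.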
